A study of Drosophila melanogaster with 12 samples.

Results

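Genes of Drosophila melanogaster that carry only a CG number, the label of an annotated gene with no descriptive symbol, were examined where their messenger RNA peaked in female pupae. A probe set was taken when its 1 listed symbol was CG plus digits, its mean in female pupae was 7 or more on the log2 scale, and this mean exceeded each of the 5 other group means by 1 or more, which is 2-fold or more. The rule found 145 probe sets, which measure 144 genes, among 5667 probe sets with 1 CG symbol (2.56%). The members were chosen by the means of all 6 groups on these same arrays, so the excess in female pupae is described here and not tested.

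The animals were whole flies of LHm, an outbred laboratory population kept at 25 °C with no other treatment. Both sexes were collected at 3 stages, as larvae of the third instar, as pupae and as adults, which makes 6 groups. The 2 biological replicates of a group each pooled 10 animals and were hybridised to 12 Affymetrix Drosophila Genome 2.0 arrays. Exact ages within a stage are not given in the labels. Because whole animals were used, fewer cells of a type and less RNA per cell cannot be told apart.

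The pupa is the stage at which most larval tissues are broken down and the adult body is built from imaginal discs and histoblasts. Its epidermis secretes a pupal cuticle and later the adult cuticle, and pulses of the steroid hormone ecdysone switch large sets of genes on and off for short times. Transcripts of cuticle proteins, of enzymes that tan the cuticle and of many secreted proteases are known for such brief peaks.

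Of 7979 probe sets with 1 symbol of another form, 97 met the same level and margin in female pupae (1.22%). The same rule applied to the other groups found 13 CG probe sets in male pupae, 35 in female larvae, 5 in male larvae, 400 in female adults and 272 in male adults. The reference annotation held 144 of the 145 members by gene ID, all as protein-coding genes, and CG9517 was the exception.

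In the 2 arrays of female pupae the median level of the 145 members was 9.86 and 9.97 (log2). In the arrays of male pupae it was 7.04 and 7.22. It lay at 5.67 and 5.68 in female larvae, 5.23 and 5.17 in male larvae, 5.6 and 5.64 in female adults, and 5.37 and 5.45 in male adults. The members were thus high in female pupae, intermediate in male pupae and low at the other stages of both sexes. Over all CG probe sets the median of the group means was lower in females at each stage, at 6.43 against 7.42 in pupae, 6.5 against 7.31 in larvae and 6.36 against 7.5 in adults. The median female minus male difference over all probe sets was instead positive, at 0.37 in pupae, 0.23 in larvae and 0.21 in adults.

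**Figure D1:**
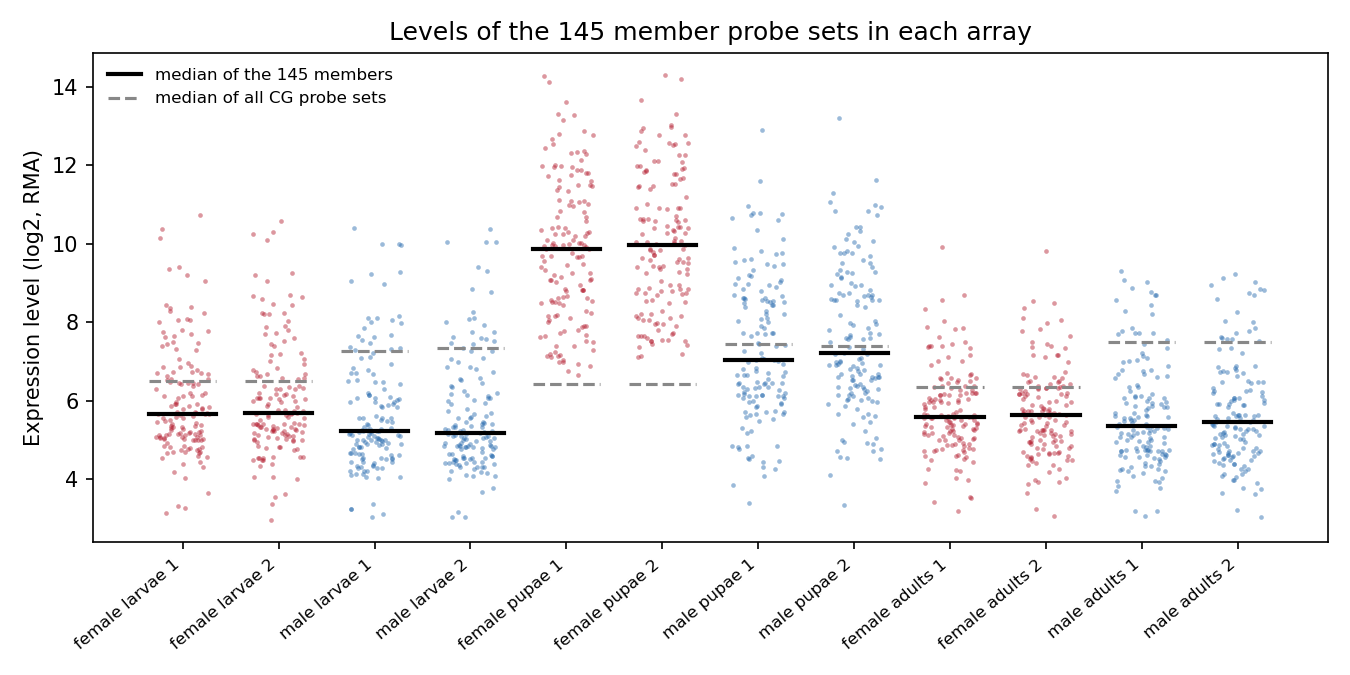
Levels of the 145 member probe sets (log2, vertical axis) on each of the 12 arrays, by group and replicate, with females in red and males in blue, the median of the members as a black line and that of all CG probe sets dashed. The members' median stands at 9.86 and 9.97 on the arrays of female pupae, at 7.04 and 7.22 on those of male pupae and between 5.17 and 5.68 on the larval and adult arrays.

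The margin, the mean in female pupae minus the highest of the other 5 group means, ran from 1.0 to 6.28 with a median of 2.0. The corresponding folds were 2.0 to 77.6 with a median of 4.0. The margin was under 2 in 72 members, from 2 to 3 in 35, from 3 to 4 in 20 and 4 or more in 18. Male pupae were the next highest group in 117 members, female larvae in 19, female adults in 6, male adults in 2 and male larvae in 1. Both arrays of female pupae exceeded all 10 other arrays in 145 of 145 members, against 16.5% of all 18769 probe sets, and the rule largely fixes this count.

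How low the other groups were was set against genes that females lack. The 7 measured Y-linked genes of a list of 12 read between 2.59 and 5.66 on the 6 female arrays, with a median of 3.35. The highest of these readings came from 1 gene, Pp1-Y2, and the other 6 genes reached 4.25. Taking 5.66 as the limit, the mean of 72 members in female larvae, 90 in male larvae, 18 in male pupae, 76 in female adults and 85 in male adults was at or below it, and that of 0 members in female pupae. Without Pp1-Y2, a choice made after seeing the data, these counts were 5, 12, 2, 8 and 17. All 4 larval and adult groups were at or below the limit in 59 members (5 without Pp1-Y2), and all 5 other groups in 16 (1 without Pp1-Y2). How many of the low readings are background is thus not settled by these genes. The share of all probe sets at or below these limits is not given here, so the counts describe the members alone.

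The 12 members with the largest margin follow in order. CG14624, a gene on the X chromosome, read 10.99 and 10.71 in female pupae and 3.85 and 4.12 in male pupae. Its readings were 4.4 and 4.75 in female larvae, 4.13 and 4.27 in male larvae, 4.60 and 4.48 in female adults, and 3.96 and 4.14 in male adults. The female pupal arrays stood alone, and the margin over female larvae, the next highest group, was 6.28 (77.6-fold).

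CG11693, on 3R, read 11.62 and 11.99 in female pupae and 5.53 and 6.02 in male pupae. The larvae read 5.69 and 5.64 (female) and 5.15 and 4.97 (male), and the adults 5.66 and 5.81 (female) and 5.44 and 5.53 (male). Male pupae overlapped both larval and adult females, and the margin was 6.03 (65.4-fold).

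CG13154, on 2R, read 12.29 and 12.95 in female pupae and 6.22 and 7.09 in male pupae. It read 5.02 and 5.11 in female larvae, 4.45 and 4.52 in male larvae, 5.26 and 5.25 in female adults, and 4.73 and 4.87 in male adults. Here male pupae lay above all larval and adult arrays, although 62.5-fold below female pupae.

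CG15615, on 2R, differed between the replicates of female pupae, with 9.86 and 11.77, against 4.52 and 4.76 in male pupae. It read 4.56 and 4.81 in female larvae, 4.05 and 4.01 in male larvae, 5.09 and 4.60 in female adults, and 4.09 and 3.79 in male adults. The lower of the female pupal arrays still stood far above all other arrays, and the margin of the means was 5.96.

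CG15545, on 3R, also had unequal female pupae, at 10.97 and 12.53, with male pupae at 6.14 and 6.44. The other readings were 5.34 and 5.50 in female larvae, 4.97 and 4.81 in male larvae, 5.19 and 5.28 in female adults, and 5.34 and 5.39 in male adults. Male pupae again stood above larvae and adults, and the margin was 5.46.

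CG9083, on 2R, read 11.48 and 12.39 in female pupae and 6.19 and 6.15 in male pupae. It read 6.45 and 6.57 in female larvae, 6.05 and 5.92 in male larvae, 6.70 and 6.33 in female adults, and 6.10 and 6.25 in male adults. Male pupae lay within the range of the other groups, and female adults were the next highest group at a margin of 5.42.

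CG12164, on 2R, read 9.66 and 10.91 in female pupae and 4.86 and 5.05 in male pupae. The larvae read 4.70 and 4.05 (female) and 4.07 and 4.08 (male), and the adults 5.33 and 4.53 (female) and 4.02 and 3.98 (male). Male pupae lay within the range of the female adults, and both female pupal arrays stood above all others.

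CG14892, listed in the reference as the serine protease SP175 and located on 3R, read 10.82 and 10.91 in female pupae and 5.86 and 5.91 in male pupae. It read 6.07 and 5.93 in female larvae, 5.89 and 5.67 in male larvae, 5.65 and 5.66 in female adults, and 5.48 and 5.30 in male adults. Male pupae and male larvae overlapped, and the excess of female pupae over male pupae was 31.6-fold.

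CG14625, which lies close to CG14624 on the X, read 11.80 and 11.48 in female pupae and 6.46 and 7.22 in male pupae. It read 4.03 and 4.0 in female larvae, 3.24 and 4.22 in male larvae, 4.22 and 3.92 in female adults, and 3.70 and 3.63 in male adults. Unlike its neighbour, CG14625 stood above the larval and adult arrays in male pupae too.

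CG6280, on 2R, read 11.96 and 12.11 in female pupae and 6.72 and 7.85 in male pupae. Female larvae read 5.47 and 5.38, male larvae 5.01 and 4.69, female adults 5.27 and 4.86, and male adults 4.63 and 4.78. Male pupae were intermediate, with replicate 2 more than 1 log2 unit above replicate 1.

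CG4998, on 3L, is listed as cSPH66, a clip-domain serine protease homolog, which is a protease-like protein of a family known from cuticle and immune cascades. It read 12.78 and 12.88 in female pupae, 7.73 and 8.56 in male pupae, 5.44 and 5.34 in female larvae and 5.55 and 6.02 in male larvae. The adult arrays were uneven, with 6.20 and 4.86 in females and 7.14 and 5.64 in males, but stayed below male pupae.

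CG42367, on 2L, read 9.16 and 9.40 in female pupae and 4.32 and 4.55 in male pupae. It read 4.69 and 4.48 in female larvae, 4.28 and 4.41 in male larvae, 4.71 and 4.6 in female adults, and 4.62 and 4.6 in male adults, so male pupae overlapped both larval groups and lay below both adult groups, by less than 0.5 on the log2 scale. A second probe set of CG42367 read only 4.44 in female pupae and 3.65 in male pupae.

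**Figure D2:**
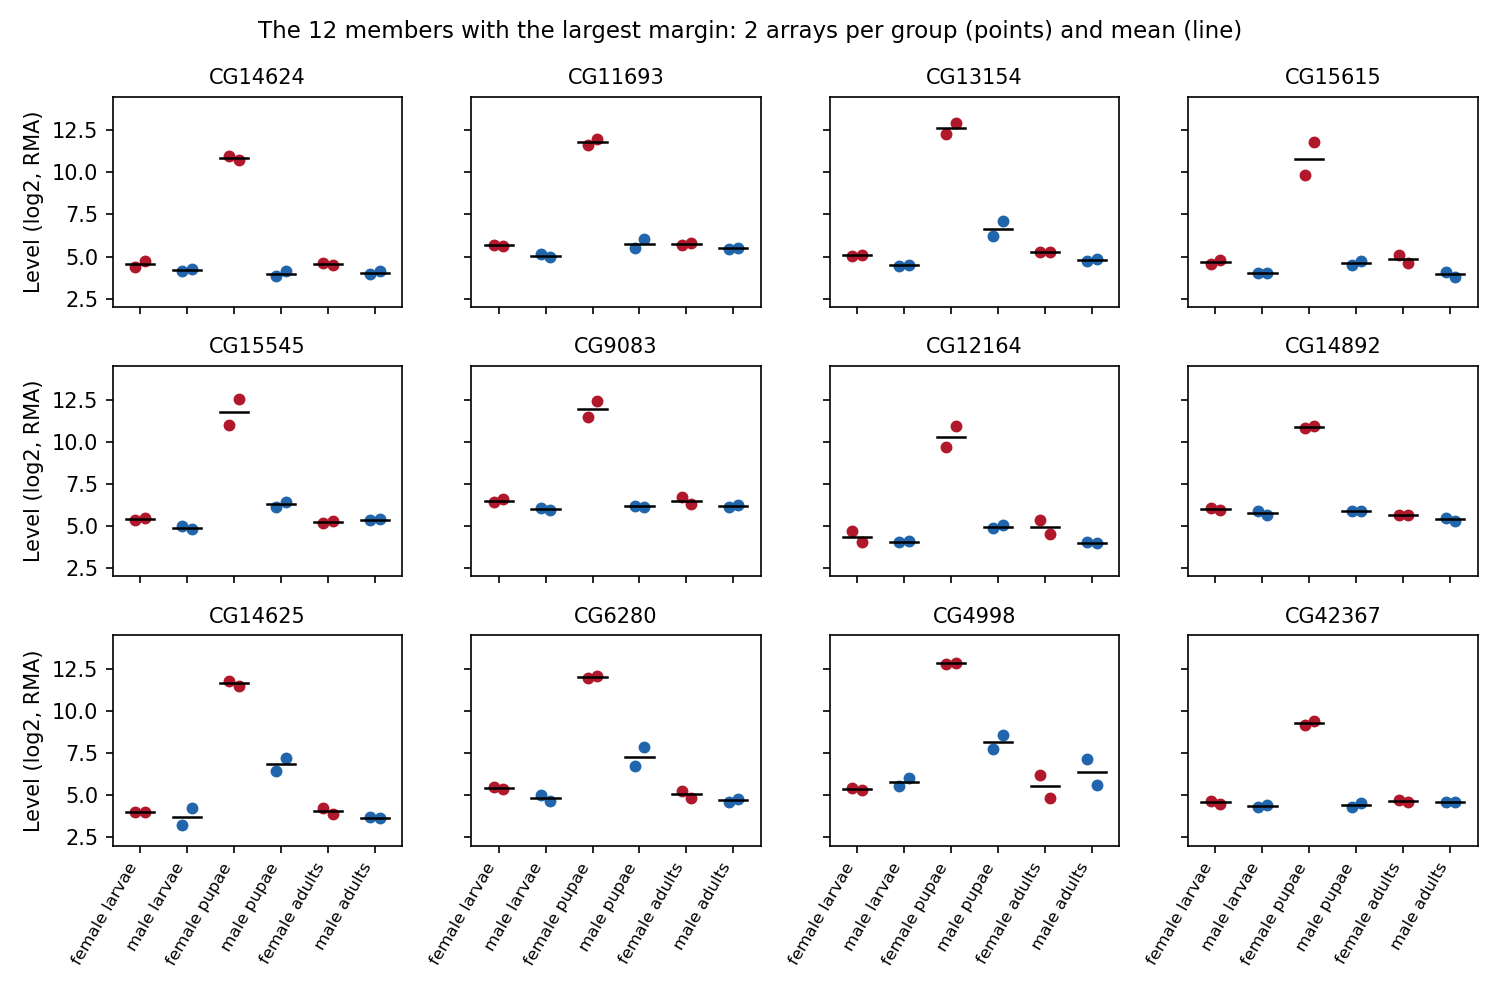
Levels (log2) of the 12 members with the largest margin on each array, with 1 panel per gene, 2 points per group (females red, males blue) and a line at the group mean. Male pupae stand above larvae and adults for CG13154, CG14625, CG6280 and CG4998, and among or near the other groups for CG14624, CG9083, CG14892 and CG42367.

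At the edge of the rule the difference between inside and outside was minute. The smallest margins inside were 1.008 for CG4733, 1.005 for CG17672 and 1.002 for CG11353. CG4733 is listed under PR72 and PP2A-B'', names of a regulatory subunit of protein phosphatase 2A. Just outside were CG4017 (0.999), CG14107 (0.995) and CG33099 (0.994). A further 8 CG probe sets met the margin but not the level, among them CG33262 at 6.864, CG9737 at 6.842 and CG31760 at 6.791.

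The rule compares female pupae with all groups, so the behaviour of the same genes in male development was examined as a measure without arrays of female pupae. The rule keeps each of the other groups 1 or more below female pupae but sets no order among them. This limit leaves out probe sets that peak in another group, such as male adults, which remain among all probe sets. Here and in the comparisons below, the shares of members against all probe sets are therefore not free of the rule. In male pupae against male larvae, 109 of the 145 members rose (75.2%), against 27.2% of all 18769 probe sets. Only 3 fell (2.07%, against 21.2%). The median log2 difference was 1.52 over the members and 0.00 over all probe sets (limma, adjusted p under 0.05 over all probe sets).

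CG42331 had the largest rise in males. It read 4.35 and 4.59 in male larvae, 12.90 and 13.22 in male pupae, and 4.74 and 4.92 in male adults, with 14.27 and 14.20 in female pupae. Male pupae did not overlap male larvae or adults, and the rise was 8.59 ± 0.13 (SE, adjusted p = 1.25e-11).

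CG15080 rose from 4.51 and 4.54 in male larvae to 10.97 and 11.30 in male pupae, a difference of 6.61 ± 0.16 (adjusted p = 1.74e-10). CG13840 rose by 5.70 ± 0.21 (adjusted p = 3.55e-09) to 9.89 and 10.32. In these members both sexes had high pupal levels, and the female excess was a smaller step on top of the stage difference. The members that fell in males were CG6337 (-1.07 ± 0.15, adjusted p = 0.00013), CG14893 (-0.89 ± 0.24, adjusted p = 0.00999) and CG5493 (-0.85 ± 0.20, adjusted p = 0.00429). The call of CG14893 was lost without male larvae replicate 1 (-0.81, adjusted p = 0.0624) or without male pupae replicate 1 (-0.69, adjusted p = 0.0901).

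CG6337 read 8.06 and 7.93 in male larvae and 6.83 and 7.02 in male pupae, with no overlap, while female pupae reached 10.03 and 10.44. For this gene pupal males were low and pupal females high.

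From male pupae to male adults the picture turned. Of the 145 members 110 fell (75.9%, against 32.2% of all probe sets) and 4 rose (2.76%, against 18.8%), with a median of -1.50 against -0.07 over all probe sets. CG42331 again led, with -8.23 ± 0.13 (adjusted p = 7.59e-12), followed by CG13748 with -6.63 ± 0.14 (4.39e-11) and CG13627 with -5.87 ± 0.11 (2.56e-11). The largest rises were 1.78 ± 0.24 for CG14893 (adjusted p = 8.58e-05), 0.93 ± 0.15 for CG6337 (0.000326) and 0.90 ± 0.25 for CG13313 (0.0116). The last lost its call under quantile normalisation (0.70, adjusted p = 0.0571), without male pupae replicate 1 (0.76, adjusted p = 0.0831) and without male adults replicate 1 (0.73, adjusted p = 0.0918).

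Male pupae were called above both male larvae and male adults in 101 members, against 13.2% of all probe sets. In 76 members the male pupal mean was 1 or more above both, against 4.26% of all probe sets, and in 21 it was 3 or more above both, against 0.826%. That male pupae stayed below female pupae is fixed by the rule.

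A smaller group of 22 members was called in neither male comparison, against 33.2% of all probe sets. It holds CG14624, CG15615, CG9083, CG12164 and CG42367 of the 12 described above. In these 22 the median mean was 5.23 in male pupae and 8.67 in female pupae, and female pupae exceeded male pupae by 1.07 to 6.87 with a median of 2.88. In the 109 members that rose in males, the medians were 7.83 and 10.11, and the excess ran from 1.00 to 6.03 with a median of 1.77. A missed call does not show that male pupae equal male larvae or adults.

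The step from larvae to pupae can be set side by side for the sexes. It was 3.40 in females as a median over the members (range 1.08 to 9.27), a value the rule used. In males it was 1.52 (range -1.07 to 8.59). The rule, which sets female pupae above male pupae and above female larvae, largely fixes that the female step was the larger in each member.

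**Figure D3:**
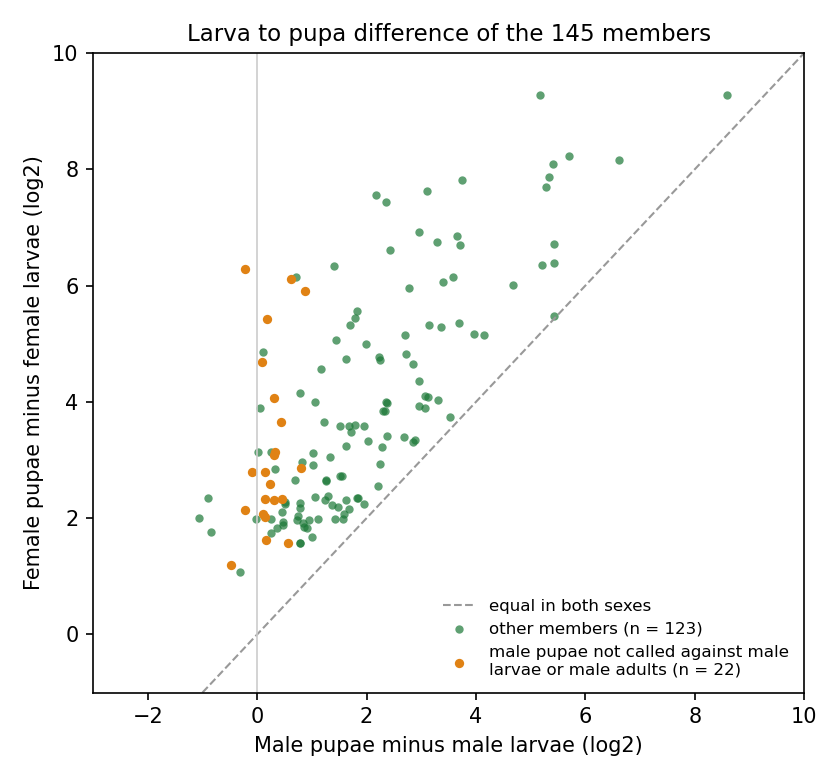
Difference between pupae and larvae (log2) in females (vertical axis) against that in males (horizontal axis), 1 point per member probe set, with the 22 members called in neither male comparison in orange and equality dashed. All 145 points lie above the dashed line, which the rule largely fixes, and the males spread from -1.07 to 8.59.

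Larvae and adults of the same sex were compared to see whether the members have any other stage preference. In females 16 members were higher in adults than in larvae (11%, against 28.2% of all probe sets) and 41 were lower (28.3%, against 24.3%). The median was -0.19, beside -0.04 over all probe sets. The share that fell is close to that over all probe sets.

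CG43333 read 4.99 and 5.29 in female larvae and 7.40 and 8.07 in female adults, a rise of 2.60 ± 0.22 (adjusted p = 2.21e-06). CG32816 rose by 1.89 ± 0.23 (adjusted p = 3.17e-05) and CG17778 by 1.38 ± 0.11 (adjusted p = 9.81e-07). These members keep an adult level above the larval one, below the pupal peak.

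CG3777 read 10.73 and 10.59 in female larvae and 6.59 and 6.42 in female adults, a difference of -4.15 ± 0.11 (adjusted p = 2.59e-10). CG33978 differed by -3.06 ± 0.19 (adjusted p = 1.87e-07) and CG14636 by -2.34 ± 0.15 (adjusted p = 2.22e-07). CG3777 was thus well expressed in larvae before the female pupal level of 12.55.

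Sex differences outside the pupa were small in larvae. Members higher in female larvae numbered 48 (33.1%, against 27.1% of all probe sets), of which 1 differed by 2-fold or more (1.43% of all probe sets did), and 2 were lower (1.38%, against 11.9%), 1 of them by 2-fold or more (8.43% of all probe sets). The median was 0.39, but all probe sets had a median of 0.23 in the same direction. In recentring, the median deviation of an array from the mean profile of all 12 was subtracted from its values. It left 16 members higher, against 7.46% of all probe sets, and 4 lower, against 14.8%.

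CG42237, listed as PLA2, a name of phospholipase A2 enzymes, led with 1.04 ± 0.20 (adjusted p = 0.00278) and 0.86 after recentring (adjusted p = 0.009). CG31176 (0.89 ± 0.14, adjusted p = 0.000623) and CG12964 (0.86 ± 0.14, adjusted p = 0.000879) followed. Lower in female larvae were CG17821 and CG13856. CG17821 read 5.13 and 5.03 in females and 7.33 and 7.28 in males, a difference of -2.22 ± 0.15 (adjusted p = 6.04e-07). CG13856 differed by -0.67 ± 0.18 (adjusted p = 0.0168), a call lost in a fit of larvae alone (adjusted p = 0.0746) and without replicate 1 of female larvae (-0.39, adjusted p = 0.112) or of male larvae (-0.47, adjusted p = 0.115).

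In adults 37 members were higher in females (25.5%, against 39.0% of all probe sets) and 25 lower (17.2%, against 26.6%). Of these, 6 and 13 differed by 2-fold or more, against 20.5% and 17.9% of all probe sets. The median of 0.20 was near that of all probe sets, 0.21, and after recentring 12 were higher, against 28% of all probe sets, and 39 lower, against 32.3%. Quantile normalisation gave 59 higher, against 41.1% of all probe sets.

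CG43333 read 7.40 and 8.07 in female adults and 4.20 and 4.60 in male adults, a difference of 3.34 ± 0.22 (adjusted p = 1.6e-07). CG13138 (1.85 ± 0.26, adjusted p = 6.9e-05) and CG11382 (1.52 ± 0.24, adjusted p = 0.000221) were also higher in females. Male adults were higher for CG17821, at 8.21 and 8.03 against 5.18 and 5.16 (-2.95 ± 0.15, adjusted p = 1.26e-08). CG17821 was thus higher in males in larvae and in adults, and higher in females in pupae.

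CG43218 read 4.74 and 5.12 in female adults and 7.56 and 7.53 in male adults, a difference of -2.61 ± 0.38 (adjusted p = 0.000105). CG42237 read 6.39 and 6.65 against 8.69 and 9.04, a difference of -2.34 ± 0.20 (adjusted p = 1.17e-06). In CG42237 the sexes did not overlap in larvae or in adults and stood in opposite orders.

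The sex difference itself was compared between adults and larvae as an interaction. It was larger in the female direction in adults for 9 members (6.21%, against 27.2% of all probe sets) and lower for 38 (26.2%, against 27.6%). Together 47 members were called, 22 of them by 1 or more on the log2 scale (15.2%, against 37.7% of all probe sets).

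What the members share beyond the rule was read from the reference annotation (RefSeq, assembly Release 6), which was used for names, chromosomes and gene order. Names of serine proteases or their homologs were listed for 8 members (5.52%), beside 177 of all CG probe sets (3.12%). Serine proteases of this kind are secreted enzymes, and homologs lack activity. Beside CG14892 and CG4998 they were CG8170 (cSP54, mean 12.47 in female and 8.40 in male pupae), CG8172 (cSP32, 9.90 and 6.51) and CG7432 (cSP19, 9.30 and 6.65).

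The others were CG6592 (SP105, 7.48 and 4.73), CG14218 (SPH211, 8.22 and 6.96) and CG1632 (SPH198, 11.38 and 10.28). By the same rule 20 of the 177 peaked in male adults, 7 in female larvae, 4 in female adults, 2 in male pupae and 1 in male larvae. Names of enzymes were also listed for CG10814 (gamma-BBH, gamma-butyrobetaine hydroxylase of carnitine synthesis) and CG8757 (FOHSDR, farnesol dehydrogenase), which were picked for having such a name.

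Of the 143 member genes with a chromosome, 32 lay on X (22.4%, against 17.1% of 5137 CG genes on the arrays), 15 on 2L (10.5%, against 18.5%) and 28 on 2R (19.6%, against 19.5%). A further 27 lay on 3L (18.9%, against 20.2%), 40 on 3R (28%, against 24.4%) and 1 on chromosome 4. Members were thus spread over all arms, with fewer on 2L and more on X than the CG genes at large, and these shares carry no test.

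Some members are neighbours. In 17 member genes the next annotated gene on one side or the other is also a member. Of 131 neighbouring positions held by a measured CG gene, 22 held a member (16.8%), whereas members make up 2.78% of placed CG genes. Runs in which members follow each other within 2 steps numbered 6 and held 20 members.

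The run on the X chromosome holds CG14627, CG14626, CG11380, CG14625, CG14624 and CG11382. Their means in female and male pupae were 12.37 and 9.82 for CG14627, 8.22 and 6.45 for CG14626, and 12.47 and 8.12 for CG11380. They were 11.64 and 6.84 for CG14625, 10.85 and 3.98 for CG14624, and 10.74 and 6.70 for CG11382. CG11381, between CG14625 and CG14624, is not a member and read 6.0 and 3.87 in pupae but 11.33 in female and 3.81 in male adults. The female excess was therefore largest at CG14624, and 1 gene inside the run peaked at another stage.

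The run on 3R holds CG17782, CG33342, CG17780, CG5768, CG13615 and CG13616. Means in female and male pupae were 7.38 and 5.58 for CG17782, 7.48 and 5.95 for CG33342, and 7.17 and 3.38 for CG17780. They were 7.58 and 4.66 for CG5768, 7.18 and 4.91 for CG13615, and 10.13 and 8.51 for CG13616. All but CG13616 lie close to the level of 7 that the rule demands. Both other probe sets of CG5768 were highest in female larvae. They read 4.26 and 3.53 in female pupae and 4.26 and 3.46 in male pupae.

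Adjacent pairs were CG32036 and CG32037 on 3L, CG4998 and CG33257 on 3L, and CG7031 and CG13840 on 3R. The last pair read 11.76 and 12.69 in female pupae and 8.23 and 10.10 in male pupae. CG3097 and CG3108 on X, with 1 gene between them, read 11.05 and 13.13 in female and 8.89 and 9.78 in male pupae. Whether neighbouring genes share transcripts or probes was not tested.

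**Figure D4:**
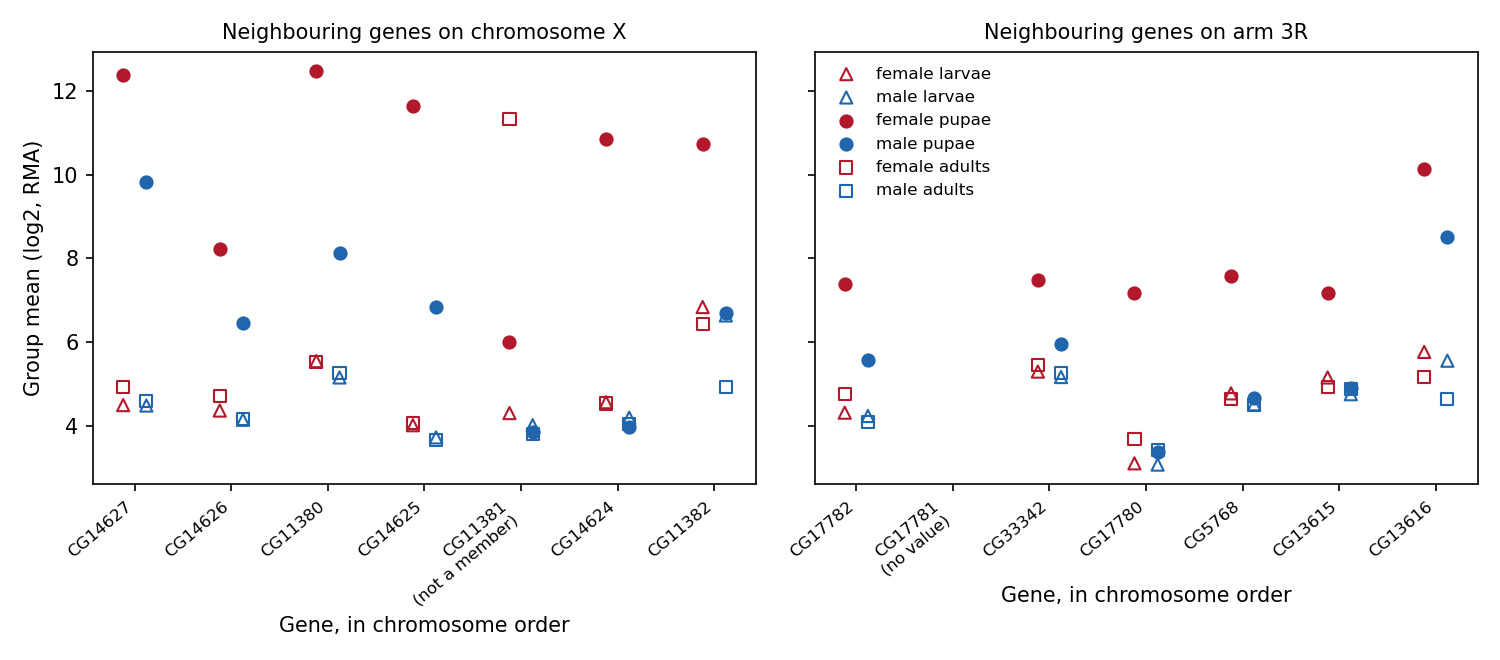
Group means (log2, vertical axis) of the genes in the X and 3R runs in gene order, with females in red, males in blue, and pupae as filled circles. Female pupae stand above male pupae at every gene with a value (CG17781 had no probe set of 1 gene), and CG11381, which is not a member, is highest in female adults at 11.33.

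The 2 arrays of female pupae were not equally high. Replicate 2 exceeded replicate 1 in 96 of 145 members (66.2%, against 50.9% of all probe sets), with a median difference of 0.10. The difference was over 1 in 8 members (5.52%, against 0.506% of all probe sets), and in all 8 replicate 2 was the higher. CG42449 read 6.76 and 9.55, a difference of 2.80, and its replicate 1 lay close to the female larvae at 6.20 and 5.97. CG12003 read 7.51 and 9.58, and CG15615 differed by 1.91.

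The arrays of male pupae were ordered in the same way. Replicate 2 was higher in 122 members (84.1%, against 51.1% of all probe sets and 49.0% of the other CG probe sets), with a median of 0.23. The difference was over 1 in 3 members (2.07%, against 0.123% of all probe sets). In the larval and adult groups the share of members with replicate 2 higher was between 41.4% and 55.2%. In both sexes, then, replicate 2 of the pupae read higher in most members. The part of this replicate difference in the female excess was not tested.

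CG17127, CG31176 and CG13699 differed least between the arrays of female pupae, by 0.001 to 0.007. The rule applied to replicate 1 arrays alone found 140 CG probe sets and applied to replicate 2 arrays alone 147. Of these 115 were found by both, 82.1% of the first set and 78.2% of the second.

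**Figure D5:**
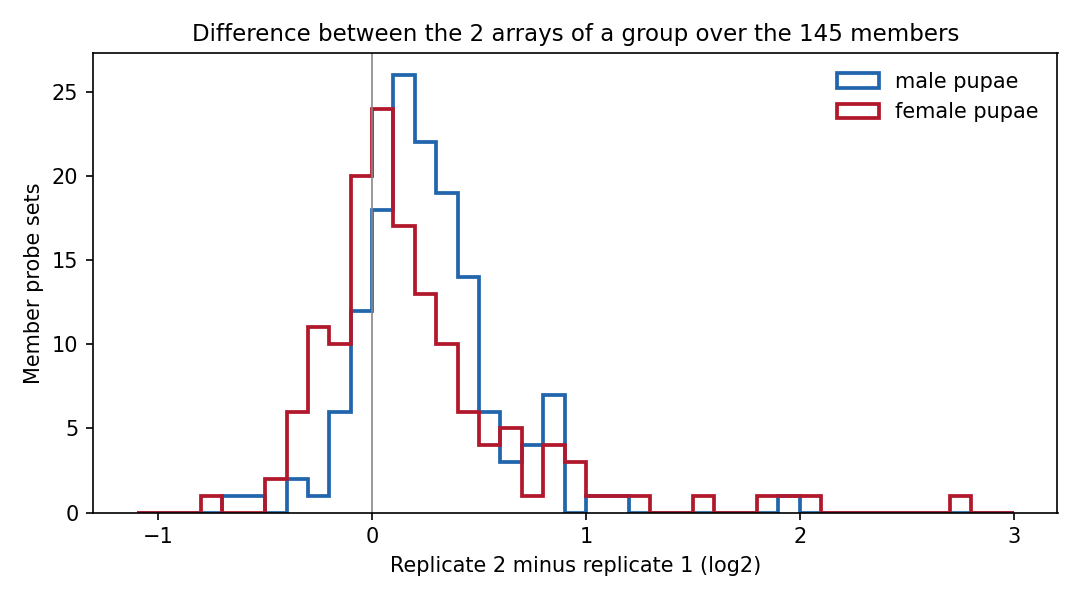
Number of member probe sets (vertical axis) by the difference between replicate 2 and replicate 1 (log2, horizontal axis), for male pupae in blue and female pupae in red. In male pupae 122 of 145 members lie above 0 and in female pupae 96, and the female pupae have a tail up to 2.80.

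A second probe set was available for 15 member genes. CG43386 met the rule with both (margins 1.97 and 1.03). The other 14 genes had 20 further probe sets, none of which met the rule. Of these 13 were highest in female pupae and 4 reached 7 there. In 17 the mean was higher in female than in male pupae, but the median difference over all probe sets was also positive, at 0.37. The share of all probe sets highest in female pupae is not given here, so these counts have no background. For CG33978 the other probe set read 10.85 in female and 11.62 in male pupae, so that it was highest in male pupae, and for CG42331 it read only 5.25 and 4.82. CG44014 had another probe set highest in female larvae and one highest in male adults. The other probe set of CG42323 missed the rule by its margin of 0.93. Probe sets may measure different transcripts of a gene, and which of them the peak belongs to was not tested.

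Among genes with another symbol that met the same rule, the largest margins were at Vajk4 (5.33) and, among the next, Cpr50Ca (4.5) and Cpr66Cb (3.75), which encode chitin-binding cuticle proteins, and y, the gene yellow needed for dark pigment (4.32). Cyp303a1, a cytochrome P450, had 4.45, Obp73a 4.18, Jhbp4 3.79, TwdlT of the Tweedle cuticle proteins 3.31, Cpr47Ec 2.94 and Cpr65Eb 2.72. Of the 94 such genes 13 were cuticle protein genes with symbols that start with Cpr or Ccp, of 69 such genes measured.

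Gene lists of pupal timing and of other cell types, written from general knowledge, were counted in female against male pupae to show what else moved with the members. Over all probe sets 51.9% were higher and 14.3% lower in female pupae, with a median difference of 0.37, so each list is given with its recentred counts. The shares of all probe sets called in pupae after recentring are not given here, so the recentred counts have no background beside them. Of 81 measured CPR cuticle genes 44 were higher and 6 lower, with a median of 0.59 (27 and 9 after recentring), with Cpr72Ec at 5.23 and Cpr73D at -1.91 ± 0.20, and 13 of the 81, Cpr72Ec included, meet the level and margin of the rule. Of 18 genes of the prepupal and early pupal ecdysone response 6 were higher and 1 lower, with a median of 0.27 (2 and 5 after recentring). Among them were Hr4, a nuclear receptor gene, at 1.3 (1.03 after recentring, no longer called), and Edg84A, a pupal cuticle protein gene, at -2.26 ± 0.15.

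Of 15 pigmentation genes 7 were higher and 1 lower, with a median of 0.31 (5 and 2), with y at 4.94 and Pu at -0.93 ± 0.18. Of 10 bristle and apical matrix genes 3 were higher and 5 lower, with a median of -0.34 (1 and 6), with mwh at 0.88 ± 0.15 and pio at -1.32 ± 0.09. Of 18 adult eye genes 13 were higher and 1 lower, with a median of 0.64 (7 and 1), with Pdh, a retinol dehydrogenase of the visual pigment cycle, at 5.18 ± 0.13 and Arr1, an arrestin of photoreceptors, at -1.85 ± 0.14. Of 23 Osiris genes 9 were higher and 5 lower, with a median of 0.20 (8 and 7), with Osi14 at 3.26 and Osi23 at -1.51 ± 0.17. Within each of these lists some genes were higher and others lower in female pupae. Hr4, y, Osi14 and Cpr72Ec meet the level and margin of the rule, so their differences are descriptions.

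All 18 measured testis genes were lower in female pupae, with a median of -6.68, and all 18 also after recentring. Of 15 ovary and eggshell genes 10 were higher and 0 lower, with a median of 0.49 (3 and 1 after recentring), and their median levels were 5.69 in female and 5.62 in male pupae. Of the 7 Y-linked genes 5 were lower and 0 higher (7 and 0 after recentring). Of 15 muscle genes 13 were higher and 0 lower (8 and 0), with a median of 0.72. The bacterial control transcripts were also higher in female than in male pupae, by a median of 0.73 (18 probe sets, 0.07 to 0.98). After recentring the rule found 113 CG probe sets. The part of tissue composition or of array scaling in the members' excess was not tested.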

How the data were processed

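Per the labels' protocols, total RNA of 10 animals per sample was extracted, labelled with biotin and hybridised to 1 array each. The authors deposited log2 expression values, 1 per probe set and array. RMA, which corrects background, normalises arrays and summarises probes, is named in the submitters' processing notes. How it was set is not given in the sources used here. Detection calls were not used here, so the lowest values may be background. The precision is limited by the number of arrays.

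Of 18952 probe sets 183 controls were left out. Genes were named from the platform annotation (13646 probe sets with 1 symbol) and RefSeq synonyms of assembly Release 6. The members, gene lists and tests were chosen with earlier results of these data known. limma 3.58.1 in R 4.3.3 fitted 6 group means over 12 arrays (residual degrees of freedom 6, prior 4.1), with calls at an adjusted p under 0.05 (Benjamini-Hochberg over 18769 probe sets). Values after ± are standard errors from this fit, with n = 2 arrays per group. Python 3.11.15 applied the rule and counted members. The limma fit was tested on simulated data.

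Members named are the 12 with the largest margin, the 3 nearest to either side of the threshold, up to 3 per direction and comparison, those with the most or least equal arrays of female pupae, with a second probe set, or neighbouring another member. Of genes with another symbol the 10 with the largest margin were taken, and examples of each list are among its 3 largest or 3 smallest differences. Replicate numbers were not used as pairs in the main fit. Over 15 pairs of groups the correlation of deviations over all probe sets was -0.076 to 0.082, and 0 were above 0.1. Such a correlation cannot show a pairing confined to fewer genes, such as the members. The alternatives were quantile normalisation, recentring, a replicate block, a fit of the compared groups, other thresholds and each array left out.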

Additional observations from a re-analysis of the deposited data

Results flagged for a closer look

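In 22 members the sex difference (female minus male, log2) differed between adults and larvae by 1 or more in a limma interaction test with an adjusted p under 0.05 over all probe sets. These are 15.2% of the members, against 37.7% of all probe sets, so the members do not exceed the background. Pupae did not enter this comparison. The interaction was fitted under the main setting alone, so its calls were not checked under the alternatives. In 3 of the 22 members the difference moved toward females, by 3.03 in CG43333, 1.36 in CG13138 and 1.32 in CG11382. CG43333 went from 0.30 in larvae to 3.34 in adults (adjusted p = 1.17e-05).

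In the other 19 it moved toward males. The change was -3.38 in CG42237, where female larvae were higher by 1.04 and female adults differed by -2.34 (adjusted p = 2.26e-06). It was -3.15 in CG43218 (adjusted p = 0.000457), -2.29 in CG5928, -2.24 in CG31176, -2.11 in CG14893 and -1.84 in CG3097. In CG31176 the larval difference was 0.89 and the adult one -1.35. Changes between -1 and -2 were also found in CG14830 (-1.68), CG14655 (-1.63), CG3777 (-1.57), CG43386 (-1.36), CG5493 (-1.30), CG8192 (-1.21), CG33978 (-1.19), CG42322 (-1.15), CG4115 (-1.1), CG44014 (-1.1), CG14567 (-1.08), CG17127 (-1.06) and CG8854 (-1.05). In all 22 the highest group was nevertheless female pupae, as the rule demands. Each change is that of 1 probe set. The other member probe set of CG43386 is not among the 22. It read 6.77 in female and 5.91 in male larvae, and 6.38 in female and 5.96 in male adults.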

How the results depend on the processing

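Apart from arrays left out, 58 of 66 alternative counts stayed within 1.5 times the reported one. The rule found 313 probe sets at a margin of 0.5, and between 100 and 163 under the other settings (100 at a margin of 1.5, 113 after recentring, 163 under quantile normalisation). Recentring changed the sex comparisons: 16 higher and 4 lower in larvae (48 and 2 reported), 12 higher and 39 lower in adults (37 and 25). Quantile normalisation gave 59 higher in adult females and 2 rises from male pupae to male adults (4 reported). A fit of larvae alone gave 1 lower. With each array left out in turn, counts ran from 101 to 114 for rises and 2 to 4 for falls from male larvae to male pupae, and 2 to 4 for rises and 102 to 117 for falls from male pupae to male adults. They ran from 11 to 16 higher and 32 to 46 lower in female adults than in female larvae. Between the sexes they were 26 to 59 higher and 1 to 3 lower in female larvae, and 22 to 44 higher and 23 to 26 lower in female adults. The rule was not run with single arrays left out. Applied to all arrays of replicate 1 alone or replicate 2 alone, it found 140 and 147. The calls in female larvae dropped to 27 without female larvae replicate 2, and to 31 and 26 without male larvae replicates 1 and 2. The 2 lower ones dropped to 1 without replicate 1 of either sex, and the rises to male adults to 2 without male adults replicate 1. Adult calls dropped to 24 without female adults replicate 1 and 22 without male adults replicate 1. With a replicate block, 109 members rose and 3 fell in male pupae, 4 rose and 110 fell in male adults, and no other call count moved by 1.5 times (15 and 40, 49 and 2, 36 and 25 in the remaining comparisons). Of 29 named differences 3 lost their call under some setting and 0 reversed. The cause was not tested. With 2 arrays a group, p-values rest on a spread shared over groups, and low readings may be background.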
